A study of Mus musculus with 4 samples.

Results

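The subject is a set of 10 genes for chemokines, cytokines and other secreted signals that regulatory T cells can make: Cxcl10, Ccl5, Xcl1, Il10, Ebi3, Il12a, Fgl2, Areg, Ifng and Il2. They were picked by name out of 22180 genes with a probe set of their own on the array, with earlier results of the same comparison in view, so the values that chose them were these differences. The differences of the 10 genes are therefore given as a description, with standard errors and no p-value. Each gene is read from its brightest probe set, the group of probes that measures 1 transcript region. A probe set with a single gene symbol was present for 9 of the 10, and Areg (amphiregulin) is not analysed here.

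Regulatory T cells (Treg) are the CD4 lymphocytes whose fate is set by the transcription factor Foxp3 and which hold other immune cells in check. Death receptor 3 (DR3, encoded by Tnfrsf25) is a costimulatory member of the TNF receptor superfamily. It signals largely through NF-kappaB and makes Treg multiply. All mice were of the reporter strain Foxp3Luci-DTR-4(B6 Albino). One group received an agonistic antibody against DR3 in the peritoneal cavity and the other an isotype control antibody. After 4 days the CD4 cells carrying Foxp3 and a green fluorescent reporter were isolated by flow sorting, and their total RNA was hybridised to Affymetrix whole-transcript arrays, 2 arrays per group. The organ the cells came from is not given in the sources used here. Nothing says whether replicates were separate mice, so the spread among these 4 arrays may be technical. All standard errors (SE) are moderated ones from limma, a linear model fitted to each gene. They combine the gene's own spread with a prior spread estimated from all genes tested. An SE can therefore be smaller or larger than the gene's own 4 values would give. Standard errors and p-values cover these arrays alone. An exact permutation test of 2 arrays against 2 cannot go below p = 0.333.

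Treg restrain their neighbours partly through what they secrete. IL-10, encoded by Il10, quiets antigen-presenting cells. IL-35 is a dimer of the Ebi3 and Il12a products. The fibrinogen-like protein of Fgl2 acts on Fc receptors of dendritic and B cells. Chemokines steer other cells: the product of Cxcl10 attracts cells that carry Cxcr3, that of Ccl5 cells that carry receptors such as Ccr1 and Ccr3, and that of Xcl1 dendritic cells that carry Xcr1. Ifng encodes interferon gamma, the cytokine of type 1 responses, and Il2 the T cell growth factor that Foxp3 is known to repress.

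RefSeq promoter sequences (GRCm38.p6) were on hand for 8 of the 10 genes; Ccl5 and Il10 are named only. The 250 bases before the transcription start are printed for Cxcl10, Ebi3 and Fgl2, the genes that were higher after anti-DR3 and have an entry. They are shown because DR3 acts through NF-kappaB and because interferon is the textbook inducer of Cxcl10. Capitals mark matches, on either strand, to the kappaB consensus, the interferon response element GAAANNGAAA, the STAT site TTCNNNGAA and the AP-1 site TGANTCA, and no marked matches overlap each other. Each runs 5′ to 3′ in the sense of the gene.
Cxcl10 (chr5:92348890-92349139, minus strand): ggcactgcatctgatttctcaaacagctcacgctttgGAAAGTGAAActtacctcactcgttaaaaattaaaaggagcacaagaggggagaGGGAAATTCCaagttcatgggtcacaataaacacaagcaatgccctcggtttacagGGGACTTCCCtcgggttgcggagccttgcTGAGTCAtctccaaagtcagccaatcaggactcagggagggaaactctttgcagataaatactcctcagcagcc
Ebi3 (chr17:55952373-55952622, plus strand): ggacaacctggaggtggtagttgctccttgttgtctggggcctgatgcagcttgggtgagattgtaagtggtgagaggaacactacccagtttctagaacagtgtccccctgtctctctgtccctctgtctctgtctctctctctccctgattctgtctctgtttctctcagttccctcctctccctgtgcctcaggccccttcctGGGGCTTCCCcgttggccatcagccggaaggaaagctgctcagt
Fgl2 (chr5:21372423-21372672, plus strand): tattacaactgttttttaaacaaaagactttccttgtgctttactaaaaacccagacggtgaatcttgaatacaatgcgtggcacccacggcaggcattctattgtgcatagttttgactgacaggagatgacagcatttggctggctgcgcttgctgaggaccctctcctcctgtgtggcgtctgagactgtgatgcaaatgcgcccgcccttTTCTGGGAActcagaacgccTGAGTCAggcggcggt

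The Cxcl10 window held 2 kappaB matches, GGGAAATTCC from 159 to 150 bases and GGGACTTCCC from 103 to 94 bases before the start. It also held the interferon response element GAAAGTGAAA, from 213 to 204, and an AP-1 match from 74 to 68. Ebi3 had 1 kappaB match, GGGGCTTCCC, from 44 to 35 bases before its start. Fgl2 had a STAT match from 36 to 28 and an AP-1 match from 16 to 10 bases before the start. Among the other genes Ifng had 1 STAT match, and the windows of Il12a (2 start sites), Areg, Il2 and Xcl1 had 0 matches to any of the 4 motifs, which says only that these letters are not in these windows. For scale, 3.90% of 32841 promoter windows of the same length held a kappaB match, 2.98% the interferon element, 7.02% the STAT site and 6.75% the AP-1 site. A match describes letters and not a bound site.

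**Figure D1:**
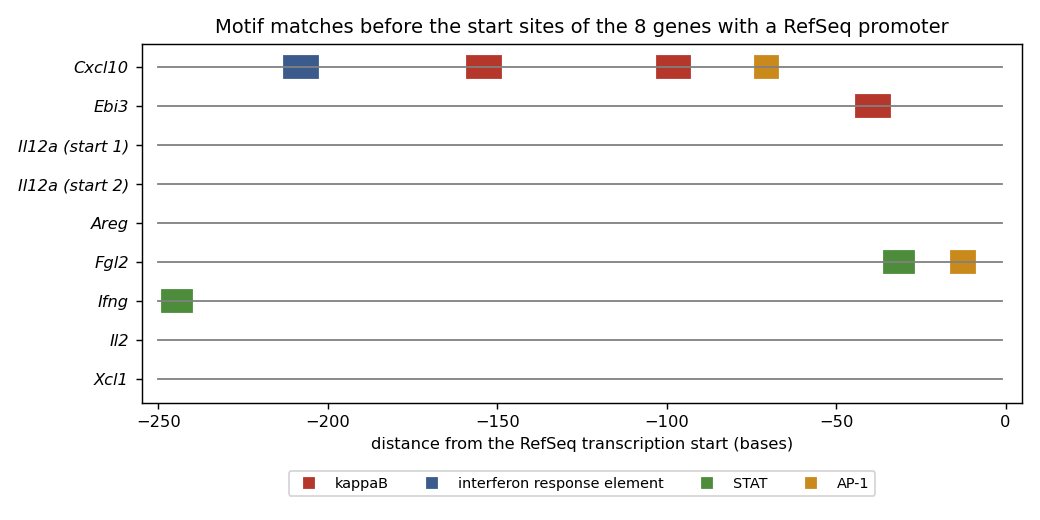
Motif matches in the 250 bases before each RefSeq start of the 8 genes with an entry; the horizontal axis is the distance from the transcription start in bases, each grey line is 1 window and each coloured block 1 match. Cxcl10 has 4 blocks, Fgl2 has 2, Ebi3 and Ifng have 1 each, and the other windows have 0.

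Of the 9 measured genes, 7 exceeded the median probe set of the array on all 4 arrays (at least 2 were required) and entered a limma fit across 12114 genes. Il12a and Il2 were dim and were not tested. In that fit (Benjamini-Hochberg adjusted p under 0.05) Cxcl10, Ccl5, Ebi3, Fgl2 and Il10 were called higher after anti-DR3, 0 were called lower, and Ifng and Xcl1 were not called. Over all genes tested 5.96% were called, 4.49% higher and 1.47% lower. For all 7 the anti-DR3 and control values were apart, 6 of them higher and Xcl1 lower, as were those of 56.1% of all genes tested, 31.6% higher and 24.6% lower. Since the genes were picked on this comparison, nothing is read from these shares.

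Among the chemokines, Cxcl10 read 8.87 and 9.08 on the anti-DR3 arrays and 7.28 and 7.44 on the control arrays, as log2 intensities like all levels given here. Both anti-DR3 arrays lay at least 1.43 above the higher control array, while arrays of the same group differed by 0.22 and 0.16. The difference between these log2 values, as for every gene here, was 1.62 ± 0.11 (SE, n = 2 arrays per group), or 3.07-fold, and it ran from 1.51 to 1.73 across the alternatives. Its call was lost without anti-DR3 replicate 2 (1.51) and under an ordinary linear model. In sorted cells read in bulk, more cells that make a product and more RNA of it per cell cannot be told apart.

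Ccl5, a chemokine of cytotoxic and memory T cells, read 9.04 and 9.58 on the anti-DR3 arrays and 8.49 and 8.40 on the control arrays. The control arrays lay close together, and the anti-DR3 arrays differed by 0.55, about as much as the gap of 0.55 between the lower of them and the higher control array. The difference was 0.86 ± 0.18 (SE, n = 2 arrays per group), or 1.82-fold. It was 1.14 without anti-DR3 replicate 1 and 0.59 without anti-DR3 replicate 2, and the call was lost whichever array was left out, in 10 of 13 alternatives in all.

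Xcl1, the chemokine that draws cross-presenting dendritic cells, read lower after anti-DR3 without passing the test. It read 5.88 and 5.77 on the anti-DR3 arrays and 6.30 and 5.97 on the control arrays. The groups were separated by 0.08, less than the 0.34 between the control arrays. The difference was -0.31 ± 0.13 (SE, n = 2 arrays per group) and ranged from -0.48 to -0.14 across the alternatives. It was not called under any alternative that tested it, and a stricter brightness filter left it untested.

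Of the anti-inflammatory products, Il10 read 7.74 and 7.86 on the anti-DR3 arrays and 7.30 and 7.00 on the control arrays. Both anti-DR3 arrays were above both control arrays, by at least 0.43, with the wider spread (0.30) in the control group. The difference was 0.65 ± 0.12 (SE, n = 2 arrays per group), or 1.57-fold. Leaving out any 1 array ended the call, with differences from 0.50 (without control antibody replicate 2) to 0.80 (without control antibody replicate 1).

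Of the subunits of IL-35, Ebi3 was bright and Il12a dim. Ebi3 read 8.05 and 8.14 on the anti-DR3 arrays and 7.37 and 7.19 on the control arrays, a gap of 0.68 between the groups. Its difference was 0.82 ± 0.096 (SE, n = 2 arrays per group), or 1.76-fold. A second probe set of Ebi3 was below the array median on all 4 arrays and read 5.26 and 5.27 against 5.23 and 5.24. The mean of both probe sets gave 0.43. The call was lost without anti-DR3 replicate 1 (0.86) and without anti-DR3 replicate 2 (0.77). Il12a read 4.80 and 4.74 on the anti-DR3 arrays and 4.70 and 4.73 on the control arrays, below the array medians of 5.33 to 5.39 on all 4 arrays. Its difference of 0.05 was not tested.

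The other partners that could join these chains were read from a list of further cytokines. Il27, whose product pairs with that of Ebi3 in IL-27, read 6.68 and 6.81 on the anti-DR3 arrays and 6.92 and 7.02 on the control arrays. It was lower on both anti-DR3 arrays without passing the test (-0.23 ± 0.090, adjusted p = 0.179, limma). Il12b, the partner of Il12a in IL-12, and Il23a, which joins Il12b in IL-23, were dim on all 4 arrays, with log2 intensities from 4.81 to 5.21 and from 4.60 to 4.95.

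Fgl2 read 7.81 and 7.52 on the anti-DR3 arrays against 7.01 and 7.00 on the control arrays, a gap of 0.52. Here replicate 1 of the anti-DR3 group was the higher of its pair, whereas replicate 2 was the higher for Cxcl10, Ccl5, Il10 and Ebi3. The difference was 0.66 ± 0.11 (SE, n = 2 arrays per group), or 1.58-fold, with 0.52 without anti-DR3 replicate 1 and 0.80 without anti-DR3 replicate 2. The call was lost with each array left out.

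Ifng and Il2, the products of effector T cells, were close to or below the array medians. Ifng read 5.62 and 5.62 on the anti-DR3 arrays and 5.50 and 5.53 on the control arrays. Its difference was 0.10 ± 0.077 (SE, n = 2 arrays per group). Il2 read 2.42 and 2.34 on the anti-DR3 arrays and 2.37 and 2.47 on the control arrays, far below the array medians, and its groups overlapped.

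**Figure D2:**
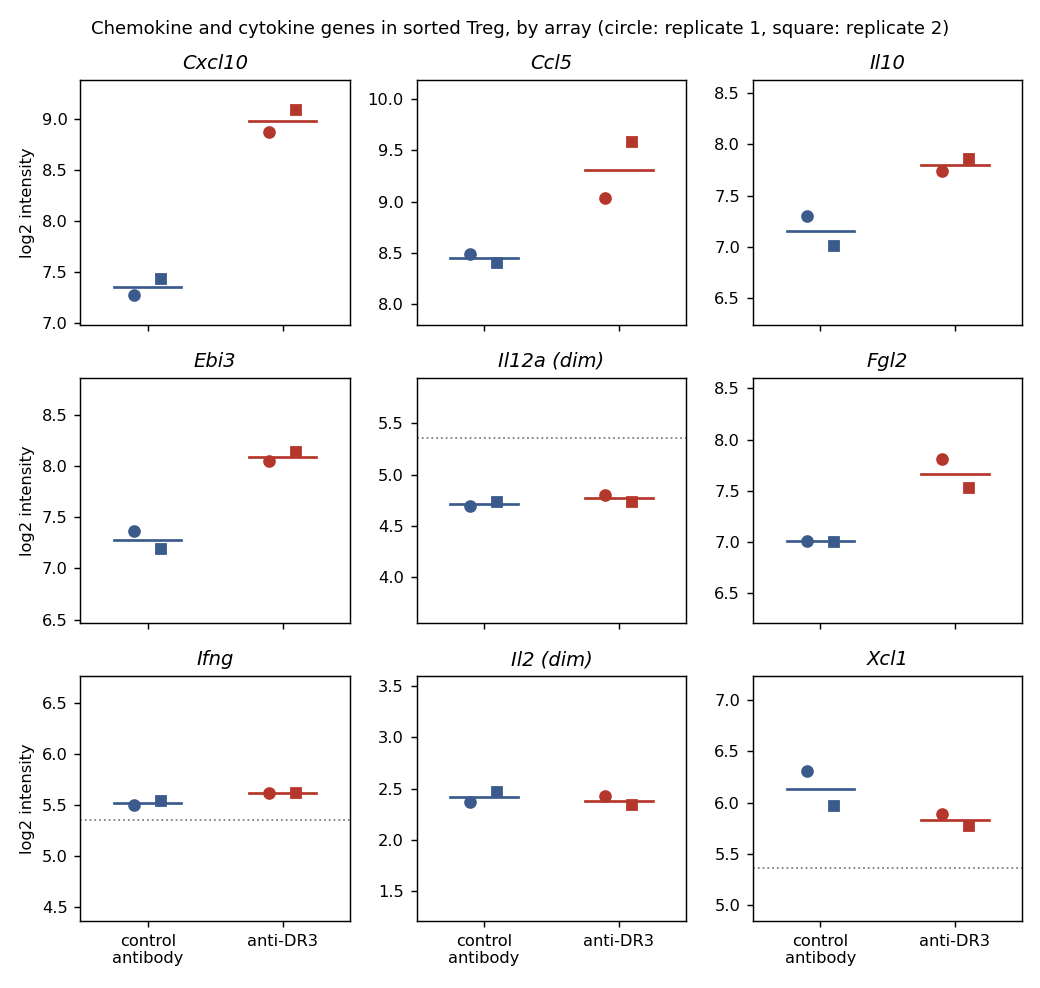
Log2 intensity of the 9 measured genes on each of the 4 arrays (circle, replicate 1; square, replicate 2; line, group mean), every panel spanning the same height of the log2 scale; the dotted line is the middle of the 4 array medians, where it falls inside the panel. Cxcl10 has the largest difference between group means (1.62), Xcl1 is lower after anti-DR3 (-0.31), and Il12a and Il2 lie below the array median.

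Over the 4 arrays, each gene's profile was centred on its own mean and compared by root-mean-square distance with 10954 tested genes, after predicted genes, small RNAs and receptor segments were set aside. Nearest to Cxcl10 were Cenpe, a kinesin of the kinetochore (distance 0.044 on the log2 scale), Top2a, a DNA topoisomerase (0.066), and Ccr3 (0.079). For Ccl5 they were Atrnl1 (0.037), Wls (0.082), a carrier of Wnt proteins, and Zfp984 (0.091). Il10 lay nearest to Tagln2 (0.045), Txn1, a thioredoxin (0.045), and Cd52 (0.047). Those nearest to Ebi3 were Fut7 (0.024), an enzyme that makes selectin ligands, Dhrs1 (0.041) and Cd80 (0.043), a ligand of Ctla4. Those nearest to Fgl2 were Slc52a3 (0.023), Lgals3bp (0.025) and the actin gene Actg1 (0.028). For Xcl1 they were Sema4a (0.011), Raver2 (0.014) and Ihh (0.027), and for Ifng, whose values barely varied, Txndc9 (0.0020), C9orf72 (0.0040) and Gdap2 (0.0062). With 4 arrays such nearness describes size and spread and no more.

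In the RefSeq gene order the 2 nearest tested genes on each side of the 7 bright genes came to 28 neighbours, of which 1 was called higher and 1 lower in limma, near the 5.96% called over all genes. The higher one was Cxcl11, beside Cxcl10 in the cluster of interferon-induced chemokines. It read 5.40 and 5.36 on the anti-DR3 arrays and 4.71 and 4.80 on the control arrays (0.62 ± 0.081). It passed the brightness filter through the anti-DR3 arrays alone, so it had to differ to be tested and its call is no support. Cxcl9, the third chemokine of that cluster, was dim, with 4.87 and 5.24 after anti-DR3 and 5.14 on both control arrays. The lower one was Atp1b1, a sodium pump subunit beside Xcl1 (-1.09 ± 0.11, adjusted p = 0.0114, limma). Ccl9 and Ccl4, neighbours of Ccl5, differed by 0.18 ± 0.092 and -0.07 ± 0.096 and were not called, and Mapkapk2, a stress kinase gene beside Il10, was at 0.39 ± 0.085 (adjusted p = 0.0544, limma).

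Other secreted signals were taken from listed genes. These lists and those below were chosen with earlier results of these data known. Their shares called are therefore a description, and nothing is read from them beside the shares over all genes. Listed genes that passed the filter through 1 group alone (Cxcl11, Ccl9 and Il12rb2) were set aside from the counts below, a choice made after the data were seen. Of 34 other chemokine ligand genes 12 were then left, and limma called 0 of them, with 1 higher and 0 lower under an unadjusted p of 0.05. Over all 12114 genes tested, 3166 were under that unadjusted p, so counts at this cut are no more than a description. The median difference was -0.09, against 0.01 for all genes tested. Of 61 other cytokine and growth factor genes 24 were tested, and 2 rose and 0 fell (5 higher and 5 lower under an unadjusted p of 0.05), with a median of -0.04. Tnfsf10, the death ligand TRAIL, rose by 0.48 ± 0.087 (adjusted p = 0.0373, limma), from 6.85 and 6.99 to 7.42 and 7.38. Grn, the gene of progranulin, rose by 0.66 ± 0.086 (adjusted p = 0.0184, limma), from 7.46 and 7.33 to 8.07 and 8.03. The share called was 8.33% of the cytokines, beside 5.96% over all genes.

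The receptors of the products were measured in the same cells (values are log2 differences ± SE, n = 2 arrays per group). The list also holds Erbb3, which is counted as a partner of Egfr and not as a receptor of a measured product. Of 13 counted, 4 rose and 1 fell in limma, with a median of 0.13; that is 38.5%, beside 5.96% over all genes. With Il12rb2 included, leaving out 1 array gave 0 to 4 calls in place of 6, with 0 once anti-DR3 replicate 2 was dropped (10 at unadjusted p under 0.05). Ccr3, a receptor for the Ccl5 product, rose by 1.53 ± 0.12 (adjusted p = 0.00988), from 5.51 and 5.52 to 6.88 and 7.22. Cxcr3, the receptor for the Cxcl10 product, rose by 0.74 ± 0.13 (adjusted p = 0.0336), from 8.32 and 8.67 to 9.20 and 9.25. Ligand and receptor genes of this pair were thus both higher on both anti-DR3 arrays than on either control array. Ccr1 was dim (4.48 and 4.59 against 3.91 and 3.87), and Il2rg is not analysed here.

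Among the cytokine receptors, Il12rb1, the shared chain for IL-12 and IL-23, rose by 0.63 ± 0.099 (adjusted p = 0.0277, limma). Il12rb2, a chain for IL-12 and IL-35, read 5.04 and 4.94 on the anti-DR3 arrays and 5.55 and 5.43 on the control arrays (-0.50 ± 0.089). It passed the brightness filter through the control arrays alone and so had to be lower to be tested. Il6st, the other chain of the IL-35 receptor, was at -0.46 ± 0.11 and not called. Il2ra, the high-affinity chain for IL-2, fell by 0.49 ± 0.095 (adjusted p = 0.0441, limma), and Il2rb was at 0.13 ± 0.10. Il10ra, which binds IL-10, was at 0.71 ± 0.20 without passing (adjusted p = 0.0924, limma), and its control arrays read 7.24 and 7.85. Il10rb (0.05), Il27ra (0.29), Ifngr1 (0.02), Ifngr2 (-0.23) and Fcgr3 (-0.30), an Fc receptor, were not called. Erbb3, which pairs with the amphiregulin receptor gene Egfr, rose by 0.68 ± 0.13 (adjusted p = 0.0441, limma). Egfr, Erbb2, Fcgr2b and Xcr1 were dim.

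**Figure D3:**
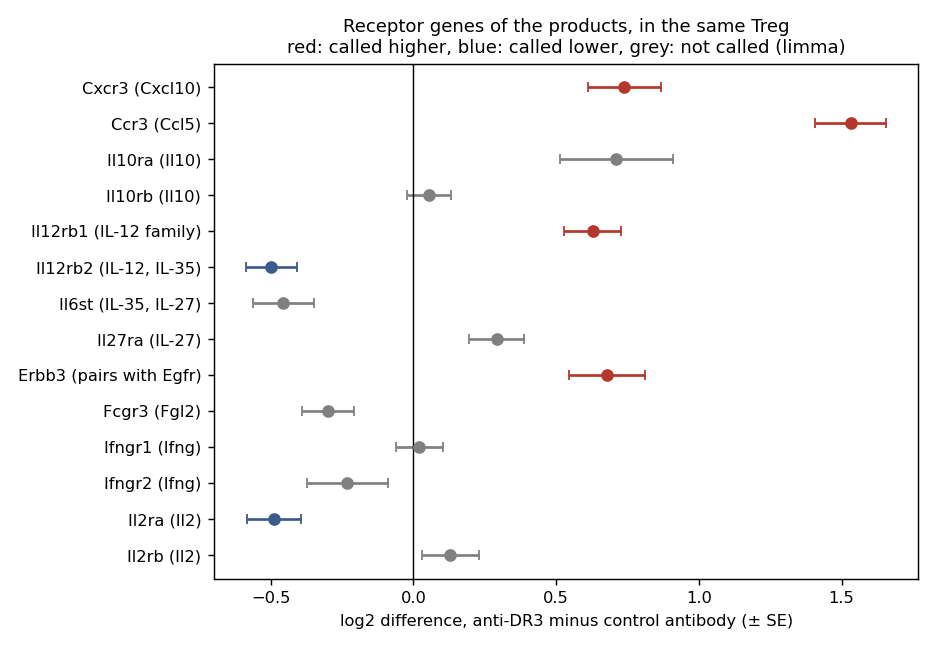
Log2 difference between anti-DR3 and control antibody (horizontal axis, with moderated standard error, n = 2 arrays per group) for the 14 receptor genes tested. Each is labelled with its ligand, except Erbb3, which is labelled as pairing with Egfr. Ccr3 (1.53), Cxcr3 (0.74), Erbb3 (0.68) and Il12rb1 (0.63) were called higher and Il2ra (-0.49) lower. Il12rb2 (-0.50), also drawn as lower, was bright on the control arrays alone and is not counted.

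Among 35 transcription factors linked to these products, 6 rose and 1 fell in limma, with a median of 0.10; that is 20%, beside 5.96% over all genes. The 7 calls became 4 with arrays centred, 0 without either anti-DR3 replicate (15 and 13 genes at unadjusted p under 0.05), and 1 and 3 when replicate 1 or replicate 2 of the control group was left out. Batf, an AP-1 family factor of effector Treg, rose by 0.92 ± 0.089 (adjusted p = 0.0104, limma). Ahr, a ligand-activated factor, rose by 0.71, Bhlhe40 by 0.65 and Nfkb2, the precursor of an NF-kappaB subunit, by 0.44. Jun, an AP-1 subunit, fell by 0.58 ± 0.081 (adjusted p = 0.0211, limma). A few further factors, Prdm1, Maf and Tbx21, were named after their values were seen. Prdm1 and Maf, known activators of Il10 in Treg, were at 0.70 ± 0.17 and 0.56 ± 0.12 without passing (adjusted p = 0.0713 and 0.0523, limma). Tbx21, the factor that drives Ifng, was at 0.22 ± 0.15, and Foxp3, on which the cells were sorted, at 0.06 ± 0.081.

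Interferon gamma is a main inducer of Cxcl10, and other genes it is known to induce were counted. Of 16 counted, 8 rose and 0 fell in limma (13 higher and 0 lower under an unadjusted p of 0.05), and the median was 0.47. Under the same unadjusted p were 3166 of all 12114 genes tested, in either direction. That is 50% higher, beside 4.49% over all genes. With Cxcl11 included, the 9 calls became 4 with arrays centred, 2 without control antibody replicate 2, and 0 without anti-DR3 replicate 1, anti-DR3 replicate 2 or control antibody replicate 1 (14, 14 and 13 genes at unadjusted p under 0.05). Iigp1, an immunity-related GTPase, rose by 0.86 ± 0.12 (adjusted p = 0.0220, limma), from 7.74 and 8.05 to 8.71 and 8.80. Cd274, the checkpoint ligand PD-L1, rose by 0.68 ± 0.087 (adjusted p = 0.0166, limma), and Psmb9, an immunoproteasome subunit, by 0.51 ± 0.085 (adjusted p = 0.0316, limma). Of the 8 not called, Socs1 was at 0.02, Ido1 at 0.10, Ciita at 0.13 and Irf1 at 0.35. Psmb8 was at 0.36, Irgm2 at 0.43, Gbp3 at 0.48 and Gbp4 at 0.53. Cxcl9 and Nos2 were dim. Ifng itself differed by 0.10. Which signal lay behind these differences was not tested.

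**Figure D4:**
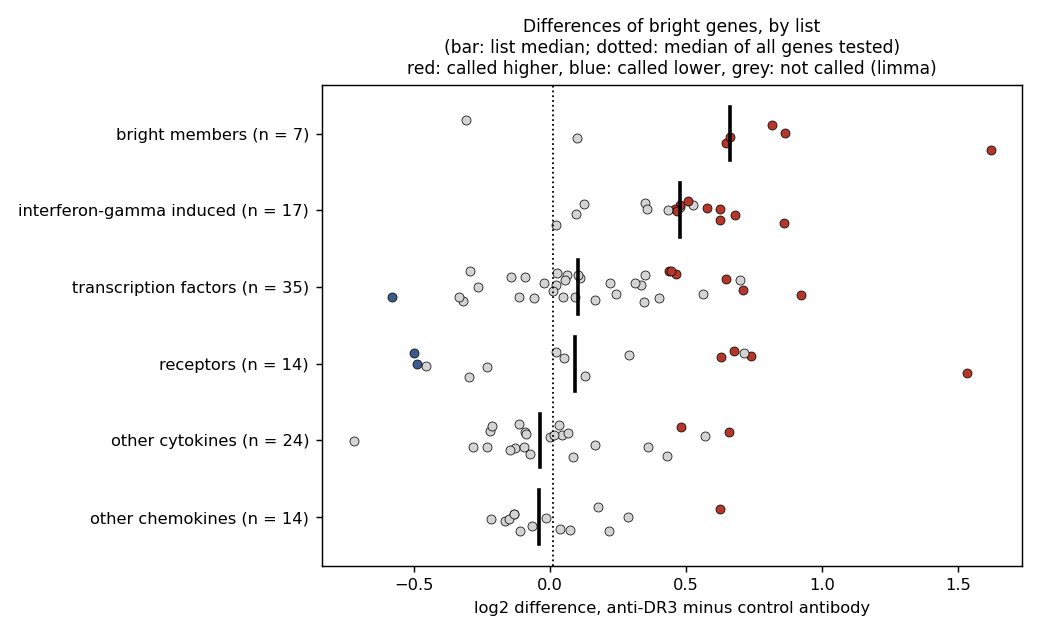
Log2 differences (horizontal axis) of the tested genes of the set and of 5 lists, 1 point per gene, coloured by the limma call; the bar is the median of the list and the dotted line the median of all genes tested (0.01). The interferon-gamma list has a median of 0.48, the transcription factors 0.10, the receptors 0.09 and both lists of other secreted signals -0.04, with the 3 genes that were bright in 1 group alone included.

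All 5 lists together held 102 tested genes, of which limma called 24, 21 higher and 3 lower, or 22 of 99 without the 3 genes set aside. The 24 are 23.5% of the 102, beside 5.96% over all genes, and nothing is read from that share. Leaving out anti-DR3 replicate 1 gave 1 limma call among the listed genes, 1 among the products and 33 over all genes. Leaving out anti-DR3 replicate 2 gave 0, 0 and 0, with 1967 genes under an unadjusted p of 0.05. Leaving out control antibody replicate 1 gave 2, 2 and 96, and leaving out control antibody replicate 2 gave 10, 2 and 312, in place of 24, 5 and 722. Once each array was centred by its median over tested genes, the 544 higher and 178 lower calls became 348 and 243, and Ccl5 lost its call. Centring lowered the difference of every measured product, that of Cxcl10 from 1.62 to 1.56. Ifng went from 0.10 to 0.04 and Xcl1 from -0.31 to -0.37.

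Markers of the sorted cells and of other cell types were read on the same arrays. For scale, limma called 5.96% of all 12114 genes tested, and 3166 were under an unadjusted p of 0.05. All 11 Treg and CD4 T cell markers were bright, and Foxp3 read 11.93 and 11.90 on the anti-DR3 arrays and 11.89 and 11.81 on the control arrays. Of the 11, limma called 3 lower, Il2ra (-0.49), Lrrc32 (-0.62 ± 0.090), which displays latent TGF-beta, and Gpr83 (-1.09 ± 0.15), and 1 higher, Ikzf2 (0.58 ± 0.077), the Helios gene. Ccl5, Xcl1 and Ifng are also products of CD8 T cells and natural killer cells. Of 7 CD8 T cell markers Cd8b1 rose (0.49 ± 0.093, adjusted p = 0.0416, limma), Cd8a and Gzma were dim, and the summed intensity was 646 to 668 after anti-DR3 and 575 to 622 after control antibody, or 437 to 484 and 437 to 482 without Cd8b1. Of 8 measured natural killer and type 1 innate lymphoid markers 4 were dim, Ncr1 among them, and 0 of the other 4 were called in limma (1 lower under an unadjusted p of 0.05), with sums of 337 to 351 and of 334.5 to 361.

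Macrophages and dendritic cells make Cxcl10, Fgl2 and Ebi3. Of 14 measured monocyte and macrophage markers 6 were dim, among them Cd14, Adgre1 and Fcgr1. In limma 2 of 8 tested rose: Ccr2 (1.17 ± 0.12, adjusted p = 0.0114), which Treg also carry, and Csf1r (0.42 ± 0.077, adjusted p = 0.0387). Under an unadjusted p of 0.05, 3 were higher and 0 lower. Over all 12114 genes tested 5.96% were called and 3166 were under that unadjusted p. The third, Itgam (0.47 ± 0.12), was bright on the anti-DR3 arrays alone. The 14 measured markers summed to 974 to 1011 after anti-DR3 and 747.5 to 790 after control antibody. Without Ccr2 the sums were 676 to 722 and 631 to 643. For dendritic cells 5 of 9 markers were dim, 0 were called in limma (2 lower under an unadjusted p of 0.05), and the sum was 1256 to 1403 against 1617 to 1903. Most of that gap was in Ccr7, which T cells also carry, and without it the sums were 664 to 667 against 685 to 756. Of 9 measured markers of type 2 innate lymphoid cells 7 were tested, with a median of 0.62, and Klrg1, Rora and Il9r rose in limma. Under an unadjusted p of 0.05, 5 were higher and 0 lower. Il17rb was at 0.67 ± 0.18, Gata3 at 0.24 ± 0.086 and Il13 at -0.09, all not called. Arg1, bright on the anti-DR3 arrays alone, was at 0.17 and not called. Il5 and Hs3st1 were dim. The sums were 2369 to 2666 against 1304 to 1440, and 1112 to 1129 against 848 to 891 without Klrg1, which Treg also carry, as they do Rora and Gata3. Neutrophil and mast cell markers were all dim (9 of 9; sums of 160 to 164 and 171 to 174). B cell markers (7 of 8 dim; 258 to 281 and 258 to 262), plasma cell markers (3 of 6 dim; 587 to 597 and 573 to 596) and stromal, endothelial and epithelial markers (4 of 12 dim; 1075 to 1077 and 1089 to 1127) had 0 calls in limma and 0 genes under an unadjusted p of 0.05. The part of other cells in the differences above was not tested.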

How the data were processed

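The authors deposited linear intensities, 1 for each probe set on each array. Per the submitters' processing notes they come from RMA, which subtracts background and equalises arrays, so a change shared by most genes would be hidden. What software and build were used is not given in the sources used here. Log2 was taken before any test. Of 41345 probe sets 23521 had 1 symbol in the platform annotation. Each gene was read from its brightest probe set, and genes brighter than the median probe set on at least 2 of 4 arrays were tested with limma 3.58.1 in R 4.3.3 (lmFit, eBayes, two-sided), Benjamini-Hochberg adjusted over 12114 genes at 0.05. Differences are anti-DR3 minus control antibody, with the moderated standard errors of eBayes. The number of arrays limits the precision.

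The members, lists, motifs and tests were chosen with earlier results of these data known. The rule named all members, up to 5 called genes of each list and direction or else the 4 with the largest statistic, the receptors, Il27, Il12b, Il23a, Cxcl9 and Cxcl11, the nearest neighbours and the 3 nearest profiles. RefSeq tables of GRCm38.p6 served for gene order and promoters alone. The code was tested on simulated data. Alternatives covered the replicate number, each array, the filter, normalization, the prior, probe sets, the threshold and an ordinary linear model. Figures were drawn with matplotlib 3.10.9.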

Additional observations from a re-analysis of the deposited data

How the results depend on the processing

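Of 117 differences of the 9 measured products under alternatives, 61 of genes tested stayed as they were in direction and call, 30 were no longer called, 0 became called and 0 of genes tested changed sign. Most of these signs were fixed in advance. The replicate block, filters, prior, single probe sets and ordinary model cannot move a difference. Where the groups are apart, as for all 7 products tested, leaving out 1 array cannot turn a sign. Ifng and Xcl1 were not tested under the stricter filter and are counted there among the 61. Of the dim Il12a and Il2, 24 moved by no more than the spread between replicates and 2 of Il12a by more, and 3 changed sign. With 1 array left out, limma called 0 to 312 genes, 0 to 2 products and 0 to 10 listed genes, against 722, 5 and 24 with all 4 arrays; the lone array was assumed to vary like the other group. No filter on dim genes gave 14 genes, 1 product (Cxcl10) and 0 listed genes, with 3573 genes under an unadjusted p of 0.05. The stricter filter gave 1157 genes and the trended robust prior 1444 genes and 43 listed genes. An adjusted p under 0.10 gave 1689 genes and 42 listed genes. Centring each array gave 14 listed genes, and quantile normalization 3 products. An ordinary linear model gave 0 genes, 0 products and 0 listed genes (2087 genes under an unadjusted p of 0.05). The causes were not tested. The replicate block gave 563 genes, of which 497 were shared with the fit without it, 18 listed genes and 3 products, Ccl5 and Il10 losing the call. Nothing in the labels says what the replicate numbers share, and with only 2 pairs (correlation of replicate differences 0.051 across genes) pairing cannot be judged.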
